A study of Arabidopsis thaliana with 9 samples.

Results

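BOI (AT4G19700) and the BOI-related genes BRG1 (AT5G45100), BRG2 (AT1G79110) and BRG3 (AT3G12920) are 4 of the 27444 protein-coding genes annotated on the nuclear chromosomes of Arabidopsis thaliana. Their LFY binding was read from 1 peak list of ChIP-seq, in which a gene was given a peak when the summit lay in the gene or up to 3 kb upstream of its start. The genes were chosen by this measured outcome: BRG3 took 3 summits and the other 3 genes took none, so the counts describe the choice and carry no test. Among all protein-coding genes 1185 had at least 1 summit by the same assignment (4.32%) and 10 had at least 3 (0.0364%). Nothing about the family is read from those shares, since the choice used them.

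BOI, the BOTRYTIS SUSCEPTIBLE1 INTERACTOR, is a RING-type E3 ubiquitin ligase that ubiquitinates the MYB transcription factor BOS1 (MYB108) and attenuates cell death, and the BRG genes encode its close relatives, which act in resistance to the grey mould fungus Botrytis. RING ligases bring a ubiquitin-conjugating enzyme to a target protein, and in BOI and its relatives the RING finger sits at the C-terminal end. BOI and the BRG proteins also bind DELLA proteins, the repressors that gibberellin removes, and repress gibberellin responses and flowering. LEAFY (LFY), the factor whose binding was measured, gives young primordia floral identity.

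The tissue was callus from roots of L.er (Landsberg erecta) seedlings aged 3 weeks, after 5 days on callus inducing medium (CIM), and every sample carried 35S:LFY-GR in an otherwise wild-type plant. The constitutive 35S promoter drives a fusion of LFY to a glucocorticoid receptor domain that enters the nucleus when dexamethasone (dex) is given, so the mock and input samples carried the fusion too, and binding was measured outside the tissue in which LFY normally acts. The groups were ChIP with an anti-LFY antibody after 5 µM dex for 1 h (3 samples), the same ChIP after mock treatment for 1 h (3 samples) and input chromatin without antibody and with no treatment listed (3 samples). The text that describes the series gives 24 h in place of 1 h, and the sample labels were followed. The 3 dex libraries were pooled against the 3 mock libraries before peaks were called, and inputs had no part in the list, so no value has an error between replicates and all intervals cover counting error only. With no expression values in the list, neither the cell types of the callus nor the transcript levels of the 4 genes could be checked.

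The sequences under the BRG3 summits are shown first, since they are what the motif counts further on refer to. All positions are on TAIR10 and all sequences are the Columbia reference from RefSeq (TAIR10.1), not the L.er sequence of the tissue, written on the strand of the gene. Capitals mark a match that differs by 1 base from the LFY core, CCANTGG, in the first sequence, and the G-box CACGTG in the second. The first is the 250 bases just before the start of BRG3 (chr3:4123583-4123832, minus strand), with the summit 88 bp upstream of the start at base 163, and the second is 75 bases on each side of the summit 816 bp upstream (chr3:4124323-4124473, minus strand), with that summit at base 76.
BRG3 promoter: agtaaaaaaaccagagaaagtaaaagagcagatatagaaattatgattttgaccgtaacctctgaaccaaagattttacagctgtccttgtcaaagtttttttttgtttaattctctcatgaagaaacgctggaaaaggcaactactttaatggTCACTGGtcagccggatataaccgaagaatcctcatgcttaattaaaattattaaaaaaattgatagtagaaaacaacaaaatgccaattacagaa
BRG3 distal window: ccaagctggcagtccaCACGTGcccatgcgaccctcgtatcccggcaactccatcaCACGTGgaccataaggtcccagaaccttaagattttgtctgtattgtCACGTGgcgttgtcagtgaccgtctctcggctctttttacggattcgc

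The remaining BRG3 summit lay inside the coding sequence, near its end, where the RING finger is encoded. The last 91 coding bases, stop codon included, are printed for each gene so that this stretch can be set beside its counterparts in the genes without a summit. They lie at chr3:4122127-4122217 on the minus strand for BRG3, chr4:10713633-10713723 on the minus strand for BOI, chr5:18219651-18219741 on the plus strand for BRG1 and chr1:29760496-29760586 on the plus strand for BRG2. Capitals mark the single match to the LFY core with 1 mismatch, which was in BRG2.
BRG3 coding end: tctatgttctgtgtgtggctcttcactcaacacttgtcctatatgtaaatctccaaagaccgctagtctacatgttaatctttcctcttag
BOI coding end: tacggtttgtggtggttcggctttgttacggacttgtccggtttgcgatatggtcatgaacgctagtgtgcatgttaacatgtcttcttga
BRG1 coding end: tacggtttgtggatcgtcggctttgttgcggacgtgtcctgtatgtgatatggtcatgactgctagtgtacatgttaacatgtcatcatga
BRG2 coding end: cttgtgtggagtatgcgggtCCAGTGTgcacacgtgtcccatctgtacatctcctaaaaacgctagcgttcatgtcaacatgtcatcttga

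BRG3 lies on the minus strand of chromosome 3, at 4121789 to 4123582, and its 1794 bp hold 3 exons with 1008 coding bases in 1 annotated transcript. Its 3 summits spanned 2241 bp, from the last coding exon to the upstream region. They are called coding, proximal and distal below, in the order in which they lie going upstream. Neighbouring summits were 1513 bp (coding to proximal) and 728 bp (proximal to distal) apart. The lowest −log10 q-value of the 3 was 38.1, far inside the limit of 10 for the list, and the furthest, at 816 bp upstream, was well inside the reach of 3 kb. The nearest summit on chromosome 3 that BRG3 did not take was 16196 bp upstream of its start.

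**Figure D1:**
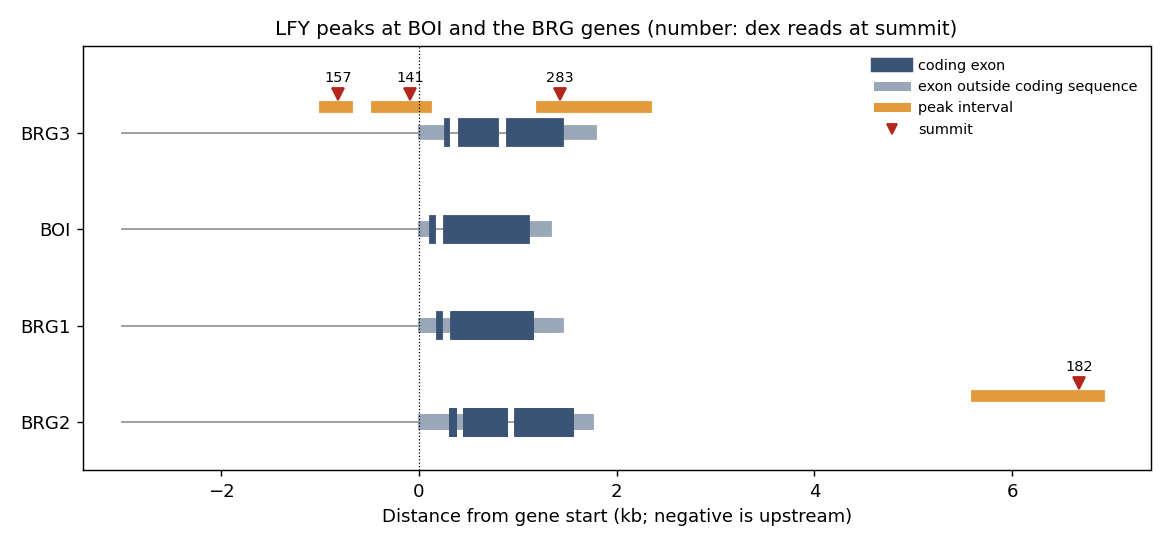
Gene models of BRG3, BOI, BRG1 and BRG2 in kb from the gene start (negative is upstream), all drawn in the direction of transcription, with LFY peak intervals, summits (triangles) and the dex reads at each summit. BRG3 carries peaks at both ends, with 157, 141 and 283 reads going downstream, while BOI and BRG1 have none in view and the summit beyond BRG2 (182 reads) lies 4919 bp past its end.

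The coding summit had the most reads. It stood at 4122157, in exon 3, 1425 bp into the gene and at the 31st base from the end of the coding sequence, and its peak ran from 4121231 to 4122386. Of its 1156 bp, 598 bp lay in the gene and 558 bp past the gene end. At the summit 283 dex reads, or 223.0 once scaled to the mock depth, stood over 29 mock reads, a depth-scaled ratio of 7.69 (95% interval 5.24 to 11.7). The deposited fold enrichment was 7.47 and the −log10 q-value 111. Among the 1177 nuclear peaks it ranked 82 by dex reads, 111 by fold and 23 by width, so that its width stood out more than its height.

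The proximal summit lay at the start of the gene and was the middle one by fold. It stood at 4123670, 88 bp upstream of the annotated start, and its peak of 589 bp (4123464 to 4124052) reached 119 bp into the gene. Here 141 dex reads (111.1 scaled) stood over 21 mock reads, a ratio of 5.29 (3.33 to 8.81), with a deposited fold of 5.10 and a −log10 q-value of 39.96. It ranked 333 by fold and 384 by dex reads of 1177.

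The distal summit had the lowest fold. It stood at 4124398, 816 bp upstream, in a peak of 329 bp (4124255 to 4124583) that did not touch the gene. The 157 dex reads (123.7 scaled) stood over 27 mock reads, a ratio of 4.58 (3.03 to 7.17), with a deposited fold of 4.45. Its dex reads were more than those of the proximal summit while its fold was lower, since its mock reads were also more. It ranked 480 by fold and 297 by dex reads, and its width (rank 664) was below the median of 357 bp. The 95% intervals of the 3 ratios overlapped in every pair. Overlap of intervals is not a test of a difference, and the folds at the 3 places were not tested against each other.

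**Figure D2:**
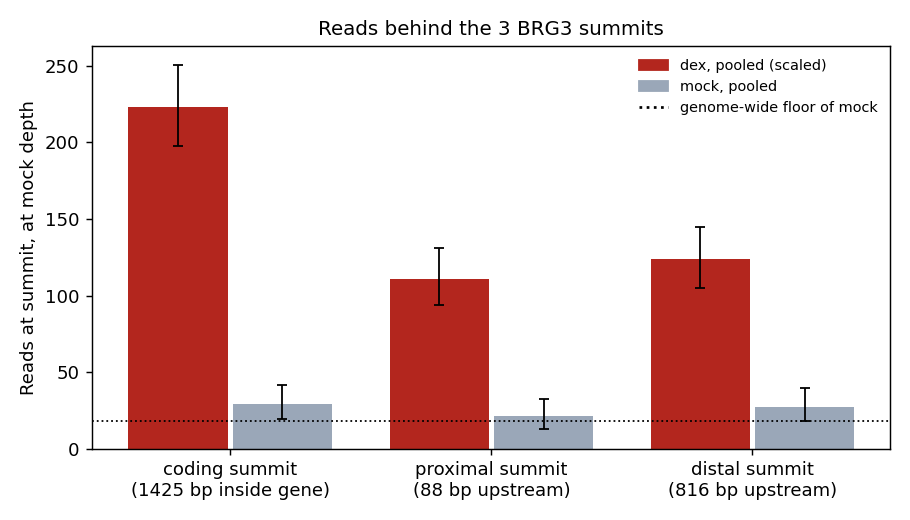
Reads at the 3 BRG3 summits in the pooled dex libraries (red, scaled to mock depth) and the pooled mock libraries (grey), with 95% Poisson intervals of the counts and the genome-wide mock floor as a dotted line. Scaled dex reads were 223.0, 111.1 and 123.7 against 29, 21 and 27 mock reads at the coding, proximal and distal summit.

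All 3 BRG3 summits had a fold above the median of the nuclear list, which was 4.04 with quartiles of 3.38 and 5.28. Dex reads at nuclear summits ran from 72 to 701 with a median of 114, so each BRG3 summit was above the median there too. Mock background at the BRG3 summits was 21 to 29 reads, against a median of 19.5 over all nuclear peaks. In each case it came from mock reads at the summit itself. A background set in that way cannot lie below the genome-wide floor of 17.97 reads that the peak caller applied. The list counts only places above its threshold, so these positions are within called peaks and not against the genome.

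**Figure D3:**
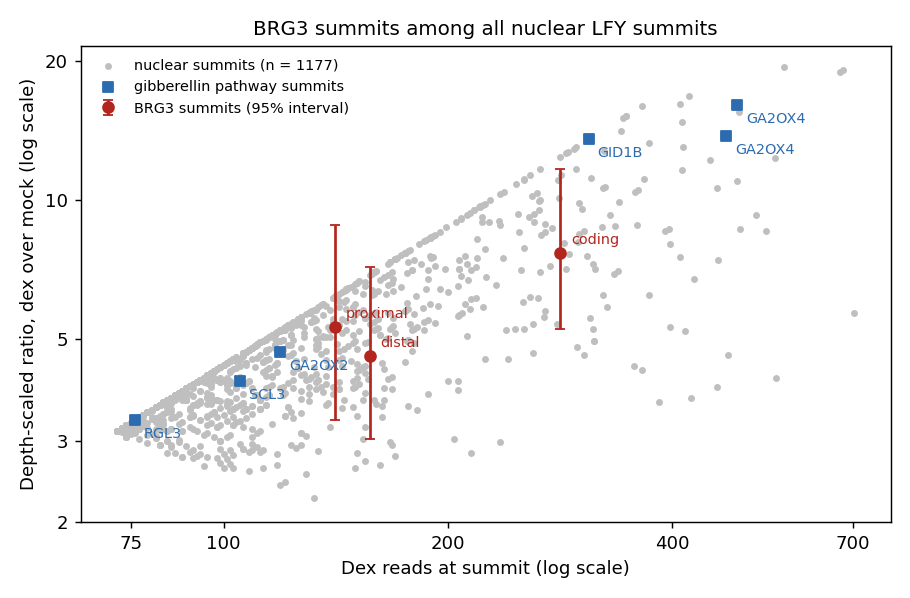
Depth-scaled ratio of dex over mock against dex reads for the 1177 nuclear summits, both axes logarithmic, with BRG3 in red (bars are 95% counting intervals), genes of the gibberellin and partner lists in blue and all others in grey. The BRG3 summits, at 7.69, 5.29 and 4.58, lie inside the cloud, and the straight upper edge holds summits whose background was the genome-wide floor.

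Of the 10 protein-coding genes with 3 or more summits, BRG3 was the second by summed dex reads. Its 3 summits together had 581 dex reads, against 622 over 4 summits at WRKY23, a WRKY transcription factor gene, and 547 over 4 summits at AT2G26520. BRG3 had the most of the genes with exactly 3 summits, the next being AT3G05220 with 425. The sums are descriptive, because the number of summits was part of the choice.

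No other protein-coding gene took a BRG3 summit. On the downstream side AT3G12915 ended 5838 bp beyond the end of BRG3, and on the upstream side AT3G12930, which encodes a Lojap-related protein and runs the other way, began 4752 bp beyond its start. Transcripts that encode no protein were closer. The annotation has the lncRNA AT3G02605 at 4123660 to 4123864 on the plus strand, 78 bp beyond the start of BRG3, and the proximal summit lay inside it. AT3G02605 also took the coding summit by the upstream reach, and a further plus-strand lncRNA, AT3G02615 (4125764 to 4126065), took the proximal and distal summits. The list does not say which transcript, if any, a summit acts on.

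BRG2, the relative whose coding end was most like that of BRG3, had the closest miss. It lies on the plus strand of chromosome 1 at 29759030 to 29760789, with 1077 coding bases in its longest form. The nearest summit, at 29765708, was 4919 bp past its end and was taken by AT1G79120. That peak was of the same order as those of BRG3: 182 dex reads stood over 27 mock reads, a ratio of 5.31 (3.53 to 8.28), with a −log10 q-value of 51.8. It lay downstream of BRG2, where the assignment has no reach.

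BOI and BRG1, the pair with the closest coding ends, had no summit in their wider surroundings. BOI is on the minus strand of chromosome 4 at 10713410 to 10714745 (915 coding bases), and the nearest summit was 117654 bp past its end, with 74 dex reads over the floor and a fold of 3.13. BRG1 is on the plus strand of chromosome 5 at 18218586 to 18220047 (885 coding bases), and the nearest summit was 231224 bp upstream, with 92 dex reads over 26 mock reads and a fold of 2.72. Both of those summits were among the weaker ones in the list, below the lower quartile of fold. For BOI, BRG1 and BRG2 the list holds no value below its threshold, so weaker binding was not detectable there.

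The last 91 coding bases of BRG3 matched BRG2 at 58 positions (63.7%), BRG1 at 50 (54.9%) and BOI at 49 (53.8%), compared base by base without gaps. BOI and BRG1 matched each other at 77 (84.6%). Over whole coding sequences the longest exact run that BRG3 shared was 18 bases with BRG2, 15 bases with BRG1 and 11 bases with BOI, while BOI and BRG1 shared 32 bases. In a search of the genome with the 301 bp around the coding summit, the best match elsewhere was in BRG2 (chr1:29760426-29760588), at 73.2% identity over 164 bp. The best matches for the other windows were 80 bp at 76.3% (proximal, of 2 matches elsewhere) and 50 bp at 84.0% (distal, of 10). None of these best matches was a near-identical copy of its window in the Columbia reference. Copies in L.er were not searched.

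The LFY core was not found exactly at any BRG3 summit. CCANTGG, a palindrome that reads alike on both strands, was centred within 150 bp of 13.1% of the 1177 nuclear summits, against 3.74% of windows 1000 bp to the left, and of 0 of the 3 BRG3 summits. The whole of each member gene with its 3 kb upstream held no exact core, while 56.5% of protein-coding genes held at least 1 in such a span. The member spans were 4336 to 4794 bp, and the share over all genes was not matched for span length. With up to 1 mismatch, 73.6% of nuclear summits and 50.3% of left windows had a match, and so did 2 of the 3 BRG3 summits. These loose matches are common, at a median of 2.96 per kb over the gene spans, and BRG3 had 10 (2.09 per kb), BRG2 11 (2.31 per kb), BOI 5 (1.15 per kb) and BRG1 3 (0.672 per kb). Every one of the 4 was below the median.

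At the proximal summit the single loose match, TCACTGG, was centred 5 bp from the summit, at chr3:4123672-4123678, and is the one in capitals in the promoter sequence. It differs from the core as C1T, with positions counted from 1 at the 5′ end of CCANTGG on the gene strand. The distal summit had 2 loose matches, CCAACGG at 107 bp (T5C) and CCGTTGG at 80 bp (A3G), both on its downstream side and outside the printed window. The coding summit had none within 150 bp. For comparison, the nearest loose match over all nuclear summits lay at a median of 47 bp, with quartiles of 15 and 164 bp. A match is a description of letters. Most nuclear summits also had no exact core within 150 bp, and whether LFY bound through any match was not tested. The exact letters are a strict measure. By its own motif analysis, the study reports LFY's known consensus at the summits of most of its peaks.

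The distal summit was marked by G-boxes, CACGTG, the palindromic hexamer that many bZIP and bHLH factors bind. It had 3 within 150 bp, centred 57, 17 and 30 bp from the summit, and all 3 are in capitals in the distal sequence. A G-box lay within 150 bp of 12.0% of nuclear summits and 5.61% of left windows, and 4 of 1177 summits (0.340%) had 3 or more. None was near the coding or the proximal summit. In the spans of gene and 3 kb upstream, BRG3 had 4 G-boxes, BRG2 3, BOI 1 and BRG1 0. Over all protein-coding genes 44.5% had at least 1, and how many had as many as BRG3 was not counted. PIF factors, which DELLA proteins hold off their targets, are among those that recognise the G-box, and binding of factors other than LFY was not measured.

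The windows also differed in the other 2 motifs searched and in base composition. The W-box core TTGAC, which WRKY factors bind, was found on either strand at 71 and 112 bp from the proximal summit and at neither of the others, with 63.5% of nuclear summits and 48.4% of left windows holding it. The repeat GAGAGA occurred once at the proximal and once at the distal summit, and its shares were alike in summits (24.8%) and left windows (24.98%). The 301 bp around the distal summit were 45.8% GC, the 12th highest of 1177 windows. The coding window had 38.2% GC (rank 144) and the proximal one 31.6% (rank 767), against a median of 32.9%. CACGTG is itself rich in G and C, and the part of the G-boxes in the high GC of the distal window was not tested.

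**Figure D4:**
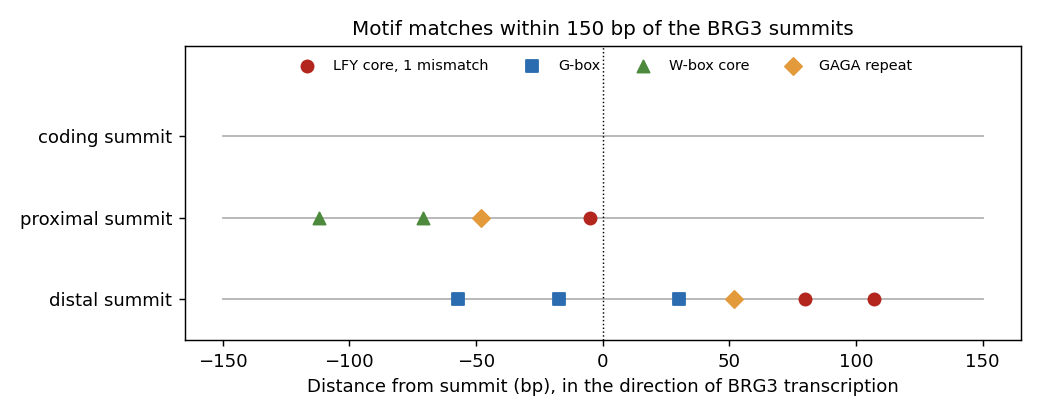
Motif matches by distance in bp from each BRG3 summit, in the direction of transcription, within 150 bp on each side. The distal summit has 3 G-boxes (blue squares) and, 80 and 107 bp away, 2 LFY cores with 1 mismatch (red circles). The proximal summit has a 1-mismatch LFY core 5 bp away (red circle) and 2 W-box cores (green triangles). Both have a GAGA repeat (orange diamonds), and the coding summit has none of the motifs.

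Annotation by name places BRG3 in a family of 10 genes called S-ribonuclease binding proteins, of which BOI, BRG1 and BRG3 are members and BRG2 is not so named. By the same assignment 1 of the 10 had a summit (10%), which was BRG3 itself, against 4.32% of all protein-coding genes, and nothing about the family is read from 1 gene that was part of the choice. AT1G10650, another of the 10, had summits 3135 and 3828 bp upstream, just beyond the reach, with 161 and 81 dex reads. It was named here after its values were seen.

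Genes of the gibberellin pathway, and partners of DELLA and BOI proteins, were counted by the same assignment. Of 50 genes in 5 lists, 5 had a summit (10%), against 4.32% of all protein-coding genes. The share is a count over chosen lists and has no test. The same holds for the counts per list below, each of which rests on very few genes.

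In the list of DELLA proteins, 1 of 5 genes had a summit. RGL3, a DELLA gene, carried it 42 bp inside its start, in an exon outside the coding sequence, with 76 dex reads, a fold of 3.21 and a −log10 q-value of 11.6, close to the limit of 10. The same summit also fell in the upstream reach of AT5G17500. Of the receptors and F-box proteins, 1 of 5 had a summit. GID1B, a gibberellin receptor, had it 2145 bp upstream at chr3:23286745-23287756, with 309 dex reads over the floor, a ratio of 13.5 (12.1 to 15.1) and a fold of 12.9. That fold was higher than those of all 3 BRG3 summits, and 2 tRNA genes took the same summit by the assignment.

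None of the 14 synthesis genes and 2 of the 11 inactivation genes had a summit, beside 4.32% of all protein-coding genes. With lists this short, no difference between them is read. GA2OX4 and GA2OX2 encode gibberellin 2-oxidases, which inactivate gibberellins. GA2OX4 had 2 summits, 758 and 2166 bp upstream, with 489 and 472 dex reads over 24 and 27 mock reads and folds of 15.5 and 13.3. Both summits also fell upstream of the lncRNA AT1G07463, and the one further from GA2OX4 upstream of AT1G47980. GA2OX2 had 1 summit, 1938 bp upstream, with 119 dex reads over 20 mock reads and a fold of 4.51. That fold lay between those of the BRG3 distal and proximal summits, while its dex reads and −log10 q-value (29.2) were below those of both. Among 15 partners of DELLA and BOI proteins and their shared targets, 1 had a summit. It was SCL3, a GRAS protein that promotes gibberellin responses against DELLA proteins, with 105 dex reads 156 bp inside the gene and a fold of 3.91.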

How the data were processed

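ChIP-seq peaks came from 1 list of 1181 peaks, 1177 of them nuclear and 4 on the chloroplast genome, which were left out. According to the submitters' processing notes, the authors used Trimmomatic 0.36, FastQC 0.11.5, Bowtie2 2.3.1 on TAIR10, SAMtools 1.7, Picard 2.9.4, bedtools and MACS2 2.1.1.20160309. The study's methods give a fixed read extension, the peak caller's automatic limit on duplicate reads per position and a summit limit of 10 on the −log10 q-value. The deposited fold enrichment is a ratio of pooled dex pileup plus 1 over mock background plus 1. The deposited −log10 p-values and q-values are those of the peak caller, and the deposited score was not used. Depth per library was not analysed here.

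Whole dex reads and the mock background behind each summit were solved from the deposited fold and −log10 p (1181 of 1181 peaks, 1 with more than 1 solution). A solution had dex reads within 0.01 of a whole number and a background within 0.0005 reads of the floor or of a whole number of mock reads in a window. Dex reads were multiplied by 0.788 to reach the mock depth, and the floor was 17.97 reads. Ratio intervals are exact (Clopper-Pearson, 95%) where mock reads around the summit set the background, and Poisson in the dex reads alone where the floor did. The solver was tested on simulated data. Genes and sequence were from RefSeq (TAIR10.1), and no peak ran past a chromosome end. Motifs were searched on both strands, within 150 bp of summits. Python 3.11.15, NumPy 2.4.6, pandas 2.3.3, SciPy 1.17.1, matplotlib 3.10.9 and BLAST 2.17.0 were used.

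Members, lists and motifs were chosen with earlier results of these data known. Every member, every listed gene with a summit and every neighbour sharing a member summit was named. No test between groups was possible on pooled libraries.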

Additional observations from a re-analysis of the deposited data

How the results depend on the processing

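Of 38 alternative values, 31 stayed within 1.5 times the count, or inside the interval, of the value given, and 7 moved. Some of the 31 could not move, or hardly could. A narrower window or a stricter limit cannot add to a count of 0 cores. The ratios were solved from the same deposited fold they were compared with. The tally is therefore no measure of how stable the results are. BRG3 was the only member with a summit under each of the 7 other assignments, and its summits numbered 3 under all but 1 of them: with the limit on −log10 q raised to 50 the coding summit alone was left (1 summit). The genes were chosen for this pattern, so its return is no support for it. The furthest summit, 816 bp upstream, was inside every reach used, and the lowest −log10 q, 38.1, was above the limit of 20. Genes of the gibberellin and partner lists with a summit were 3 with a reach of 1 kb and 2 with the limit of 50, against 5, with backgrounds of 2.43% and 0.998%. Giving each summit to the nearest protein-coding start made them 6 (background 3.57%). The gene added was MYB108, listed as a partner because it is the substrate of BOI, 5135 bp from a summit with 269 dex reads (named after its value was seen). S-ribonuclease binding family genes with a summit were 2 with a reach of 5 kb and 2 with any overlap of 1 bp, against 1, through AT1G10650, with backgrounds of 6.13% and 4.59% in place of 4.32%. The ratio at the coding summit was 12.4 over the genome-wide floor, against 7.69 over its own mock reads, because the floor is lower than those reads. Member summits with a core were 2 with up to 1 mismatch, against 0. No replicate could be left out, and no paired analysis was possible because the libraries were pooled before peaks were called.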
